A study of Mus musculus with 8 samples.

Results

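RNA-seq counts of 10 genes that encode ligands of the transforming growth factor beta (TGF-beta) superfamily were examined in neonatal cardiomyocytes (NCMs). The genes were *Tgfb1*, *Tgfb2*, *Tgfb3*, *Bmp2*, *Bmp4*, *Bmp5*, *Bmp6*, *Bmp7*, *Bmp10* and *Inhba*. They were chosen by symbol, and all 10 were present among the 27179 genes of the count table and among the 14966 that passed the filter on low counts. Each of the 8 libraries came from the NCMs of 1 male C57Bl/6 J neonate at postnatal day 0. The dams of 4 neonates had been kept in filtered air (FA replicates 2, 3, 4 and 6) and those of the other 4 in diesel exhaust (DE replicates 1, 3, 5 and 7), from embryonic day 0.5 until late gestation. The hearts had been trimmed of atria and vessels, and fibroblasts had been reduced by plating in medium with Ara-C, without sorting of the cells. The sources used here do not say whether neonates shared a litter, so p-values measure the spread between neonates. In the sample names, DE replicates 3 and 5 carry the number 12 and the other 6 libraries carry 11, and the meaning of this number is not given.

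The ligands of this superfamily are secreted as precursors, cut by furin-like proteases and released as dimers. They bring together type I and type II receptor kinases, which phosphorylate Smad transcription factors. TGF-beta and activin ligands act mainly through Smad2 and Smad3, and bone morphogenetic proteins (BMPs) through Smad1, Smad5 and Smad9. In the developing heart, BMPs take part in the specification of cardiac cells, in the valve cushions and in growth of the trabeculae, and TGF-beta ligands in cushion formation and in the production of matrix by fibroblasts.

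The libraries held 17943024 to 39839737 counts, and the lowest count of any of the 10 ligands in a library was 25. All 12 cardiomyocyte markers looked at were found, with a summed level of 72283 to 74129 CPM (counts scaled to the library total, with TMM factors) in FA and 60829.5 to 69554 CPM in DE. Markers of other cells were also present. The sum of 12 fibroblast markers ran from 2231 to 3789 CPM in FA and from 3952 to 6632 CPM in DE, with all 12 above 0 in log2 fold change and 4 called by the rule given below. The sum of 12 endothelial and endocardial markers ran from 1464 to 1868 CPM in FA and from 1589 to 2286 CPM in DE. Here 10 markers lay above 0 and 2 below (median 0.27), with 0 called. Of 8 tested leukocyte markers 7 were above 0 and 1 was called (*Itgam*, higher in DE), with sums of 14.2 to 20.9 CPM in FA and 18.9 to 29.5 CPM in DE. Of 7 tested erythroid and platelet markers all 7 were above 0 and 1 was called (*Slc4a1*, higher in DE), with sums of 435.0 to 1028 CPM in FA and 680.0 to 1129 CPM in DE. Of the 12 cardiomyocyte markers 10 were below 0 and 2 above, and *Myh7* was called higher and *Myh6* and *Pln* lower. Without *Myh6*, the sum of the other 11 ran from 49422 to 51041 CPM in FA and from 46867 to 54125 CPM in DE. The groups then overlapped, but this sum kept *Myh7*, with means of 10022 CPM in FA and 14494 CPM in DE. The sum of 7 valve interstitial markers was lower in DE without overlap, at 153.8 to 198.5 CPM in FA and 125.2 to 146.8 CPM in DE. Of the 7, 4 were below 0 and 3 above, with a median of -0.03, and 1 was called lower, *Prox1*. Mean levels in FA and DE were 57.1 and 34.5 CPM for *Prox1* and 51.1 and 36.2 CPM for *Tbx18*, so the sum leaned on these genes. The sum of 10 smooth muscle and pericyte markers ran from 1643 to 2225 CPM in FA and from 1229 to 1644 CPM in DE, and without *Acta2* from 534.8 to 761.5 CPM and from 468.1 to 723.5 CPM. None of these markers was at 0 in all libraries. In such bulk samples, fewer cells of a type and less RNA per cell cannot be told apart.

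The sequences before the transcription start differed widely between the ligand genes. RefSeq promoter entries of GRCm38.p6 were found for 7 of the 10 genes, and the 250 bases before the start are shown for 3 of them, which differ in their share of G and C and in their core elements. Capitals mark the GC box (GGGCGG, read on both strands) and the TATA box (TATAAA, read on both strands), and each run reads 5′ to 3′ on the strand of the gene.
Tgfb1 (chr7:25686752-25687001, plus strand): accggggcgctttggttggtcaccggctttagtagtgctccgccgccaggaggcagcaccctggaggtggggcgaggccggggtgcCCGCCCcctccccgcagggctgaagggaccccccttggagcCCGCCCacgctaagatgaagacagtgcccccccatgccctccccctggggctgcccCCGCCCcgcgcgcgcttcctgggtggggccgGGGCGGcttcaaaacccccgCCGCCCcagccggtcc
Bmp4 (chr14:46390670-46390919, minus strand): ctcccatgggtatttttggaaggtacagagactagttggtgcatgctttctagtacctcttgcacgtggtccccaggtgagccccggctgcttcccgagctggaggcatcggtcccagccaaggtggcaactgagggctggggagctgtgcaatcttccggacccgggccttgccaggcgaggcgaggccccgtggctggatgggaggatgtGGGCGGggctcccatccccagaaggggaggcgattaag
Inhba (chr13:16011601-16011850, plus strand): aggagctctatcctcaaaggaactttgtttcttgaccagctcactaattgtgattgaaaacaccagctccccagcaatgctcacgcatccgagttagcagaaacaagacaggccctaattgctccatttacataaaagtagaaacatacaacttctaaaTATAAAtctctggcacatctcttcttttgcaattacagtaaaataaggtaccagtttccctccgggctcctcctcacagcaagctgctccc
The *Tgfb1* window held 5 GC boxes and 75.2% G and C. The *Bmp4* window held 1 GC box and 63.2%, and the *Inhba* window 1 TATA box and 43.2%. Over 32851 promoter windows of this length the median share of G and C was 52.4%, so the 3 windows lie on both sides of it. The GC box was present in 3 of the 7 ligand windows and in 32.7% of all windows, and the TATA box in 2 of 7 and in 12.4%. The core site of the aryl hydrocarbon receptor, which binds polycyclic aromatic compounds, is GCGTG. Read on both strands, it was present in 3 of 7 ligand windows (*Tgfb1*, *Bmp6* and *Inhba*) and in 28.2% of all windows. These matches describe letters only. The *Inhba* window precedes the transcript start that its promoter entry uses, which lies inside the RefSeq gene span that opens at 16004256. The *Bmp6* window is not shown because all of its 250 bases lie in exons of the annotation. The *Tgfb2* window, with 167 such bases, and the *Bmp5* window, with 1, are not shown either. These windows are counted among the 7 above.

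Per kilobase of exon, *Tgfb2*, *Tgfb1* and *Bmp7* led the 10 transcripts and *Inhba* was lowest. *Tgfb2*, which acts in the endocardial cushions, was at 8.78 ± 1.12 CPM per kb in FA and 8.99 ± 1.30 in DE (SD, n = 4 each). *Tgfb1*, the form most studied in fibrosis, was at 7.61 ± 0.921 CPM per kb in FA and 9.01 ± 1.84 in DE. *Bmp7*, a BMP with broad roles in organ formation, was at 7.24 ± 0.277 CPM per kb in FA and 7.54 ± 1.38 in DE. In FA, *Tgfb1* overlapped with *Tgfb2* and with *Bmp7*, while the lowest *Tgfb2* value (7.80 CPM per kb) lay above the highest of *Bmp7* (7.44).
In FA, *Tgfb3* at 5.24 ± 0.535 CPM per kb and *Bmp4* at 3.05 ± 0.545 followed, each without overlap with its neighbors in the order. *Bmp6*, *Bmp5*, *Bmp2* and *Bmp10* had mean FA levels of 1.97, 1.56, 1.29 and 1.07 CPM per kb, and *Inhba*, the beta A subunit of activins and inhibins, of 0.585. Each of these last 5 overlapped with its neighbor in the order. In DE, the levels of *Bmp6* and *Bmp4* overlapped, at 3.64 ± 0.933 and 4.31 ± 0.897 CPM per kb. Of the summed per-kilobase level of the 10 ligands, *Bmp6* held 5.12% in FA and 8.20% in DE, and *Tgfb2* held 22.8% in FA and 20.6% in DE. The place of *Tgfb1* depended on the length used. Divided by its longest transcript of 2573 bases, and not by all annotated exons of 5042 bases, its FA level was 14.9 CPM per kb, above the 9.94 of *Tgfb2*.

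DE was compared with FA to ask how exposure before birth goes along with transcription in NCMs. Of the 10 ligand genes, 1 was called, *Bmp6*, which was higher in DE, and 0 were called lower. A call needed an adjusted p of 0.05 or less (quasi-likelihood test of edgeR, Benjamini-Hochberg adjustment over all tested genes) and a difference of 25% or more. Of all tested genes, 5.80% were called, 3.58% as higher and 2.22% as lower in DE, so a single call among 10 genes is near the background. At an unadjusted p under 0.05, 3 of the 10 ligands differed (*Bmp2*, *Bmp4* and *Bmp6*), against 25.6% of all tested genes. For *Bmp2* and *Bmp6*, 2 of the 10, the DE and FA libraries held separate ranges of CPM, both with DE higher. This was so for 14.7% of all tested genes in either direction and for 7.43% with DE higher. The log2 fold change (DE minus FA, also below) was above 0 for 8 ligands, as for 50.5% of all tested genes, and below 0 for *Bmp5* and *Inhba*. Its median was 0.12 over the 10 ligands and 0.00 over all tested genes.

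**Figure D1:**
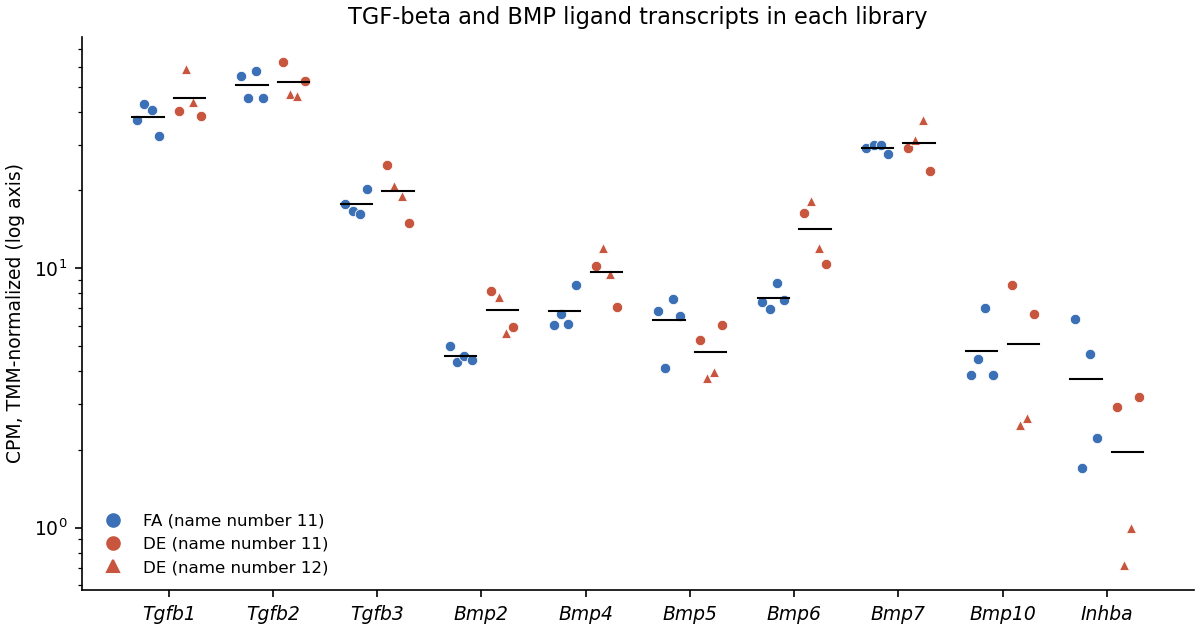
TMM-normalized CPM on a log axis for the 10 ligand genes, with 1 point per library, FA in blue and DE in red, triangles for the DE libraries whose names carry 12, and black lines at the group means. The FA and DE points do not overlap for Bmp2 and Bmp6, and the triangles lie below all other points of Bmp10 and of Inhba.

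*Bmp6* (Entrez ID 12161, on the plus strand of chromosome 13 between 38345716 and 38500314 in GRCm38.p6) encodes a BMP that endothelial cells secrete and that drives hepcidin expression in the liver. Its level was 7.43, 6.98, 8.75 and 7.57 CPM in FA replicates 2, 3, 4 and 6. In DE replicates 1, 3, 5 and 7 it was 16.4, 18.1, 11.9 and 10.4 CPM. Every DE library lay above every FA library, and DE replicates 1 and 3 stood highest. The group means were 7.68 ± 0.754 CPM in FA and 14.2 ± 3.64 in DE (SD, n = 4 each). The difference was 1.86-fold, with a 95% interval from 1.42 to 2.43, and the adjusted p was 0.0180 (edgeR's quasi-likelihood test). On the log2 scale this was 0.89 with a standard error of 0.18.
Levels of other cells' markers and of a neighboring gene stand beside this difference. The fibroblast marker sum was 6632, 5122, 3952 and 4855 CPM in DE replicates 1, 3, 5 and 7, above the FA range in each, and the endothelial sum was 1803, 2286, 1589 and 1876 CPM, with the FA range reaching 1868. Among the 12 endothelial markers, 10 lay above 0 and 2 below, with 0 called. The leukocyte and erythroid sums overlapped between the groups. The sum of all 12 cardiomyocyte markers was lower in DE (60829.5 to 69554 CPM) than in FA (72283 to 74129). Without *Myh6*, but with *Myh7* kept, it overlapped. The valve interstitial sum was lower in DE, with 4 of its 7 markers below 0 and 3 above. The part of other cells in the *Bmp6* result was not tested. *Txndc5*, a protein disulfide isomerase gene on the opposite strand, shares 224 bases or 5.74% of the annotated *Bmp6* exons. It was at 89.3 ± 7.71 CPM in FA and 114.0 ± 17.6 in DE, with a log2 fold change of 0.35 and an adjusted p of 0.104 from edgeR, and was not called. The kit kept the strand, but the strand setting of the counting is not given, so the part of *Txndc5* reads was not tested.
Among the 13361 genes whose mean reached 1 CPM, the profile of log2 CPM across the 8 libraries closest to that of *Bmp6* was that of *P3h3*, a collagen prolyl hydroxylase gene, with a root mean square difference of 0.0911. *Col26a1*, a collagen gene, at 0.125 and *Map3k6*, a kinase gene, at 0.152 came next. Their log2 fold changes were 0.79, 0.69 and 0.88. They were picked for likeness on the same libraries, so their differences are a description.

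*Bmp2* (chromosome 2 from 133552159 to 133562896), which acts in cardiac specification and in the atrioventricular cushions, missed the threshold. Its level was 5.00, 4.33, 4.57 and 4.43 CPM in FA replicates 2, 3, 4 and 6. In DE replicates 1, 3, 5 and 7 it was 8.20, 7.77, 5.61 and 5.92 CPM. The groups did not overlap, and DE replicates 1 and 3 were again the highest. The log2 fold change was 0.58 with a standard error of 0.16 (95% interval 0.24 to 0.93), and the adjusted p was 0.0532 from edgeR's quasi-likelihood test. With DESeq2 the adjusted p was 0.0160 and *Bmp2* was called.
*Bmp4* (chromosome 14 from 46383525 to 46390669), a BMP of the early mesoderm and outflow tract whose promoter is shown above, was at 6.04, 6.68, 6.09 and 8.66 CPM in FA replicates 2, 3, 4 and 6. In DE replicates 1, 3, 5 and 7 it was at 10.2, 12.0, 9.50 and 7.09 CPM. The groups overlapped through FA replicate 6 and DE replicate 7. The log2 fold change was 0.50 with a standard error of 0.18, and the adjusted p was 0.108 from edgeR.
*Bmp5*, a BMP closely related to *Bmp6* and *Bmp7* in sequence, ran from 4.14 to 7.62 CPM in FA and from 3.76 to 6.02 CPM in DE. Its log2 fold change was -0.42 with an adjusted p of 0.242 from edgeR, and the antisense gene *Gm26903* shares 46.7% of its annotated exons. *Bmp7* ran from 27.5 to 29.9 CPM in FA and from 23.8 to 37.2 in DE, with a log2 fold change of 0.06 (95% interval -0.22 to 0.34). Within this family of 3 related ligands, *Bmp6* alone was called, and the differences between their fold changes were not tested.

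**Figure D2:**
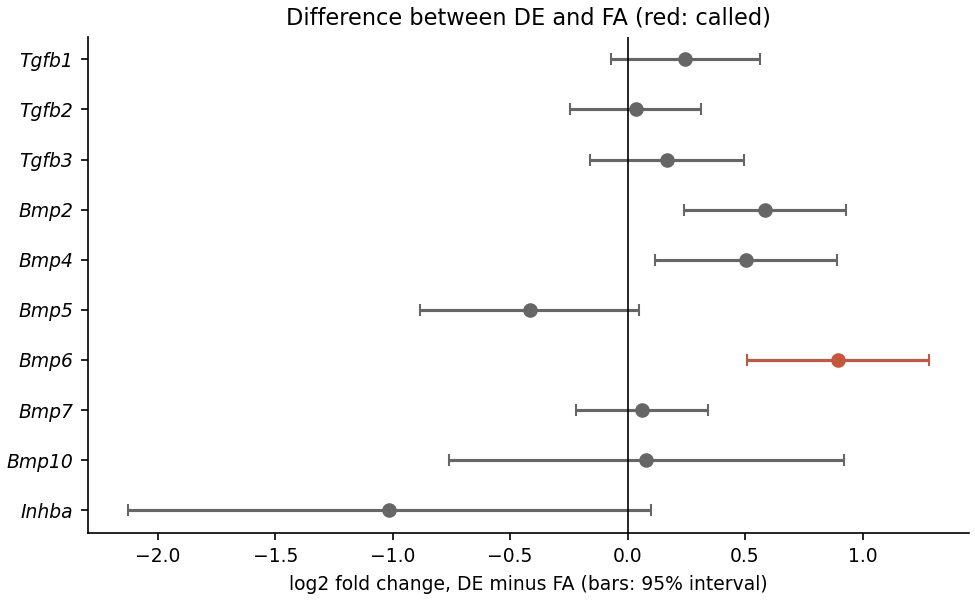
Log2 fold change between DE and FA for each ligand gene, with bars for the 95% interval of the edgeR fit and the called gene in red. The intervals of Bmp2, Bmp4 and Bmp6 lie above 0, and those of Inhba (-2.13 to 0.10) and Bmp10 (-0.76 to 0.92) are the widest.

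The 3 *Tgfb* genes encode the TGF-beta isoforms, which are stored in the matrix in latent form, and 0 of them were called. *Tgfb1* was at 37.4, 43.1, 40.6 and 32.4 CPM in FA replicates 2, 3, 4 and 6 and at 40.5, 58.9, 43.7 and 38.5 CPM in DE replicates 1, 3, 5 and 7. Only DE replicates 3 and 5 lay above the FA range. Its log2 fold change was 0.25 with a standard error of 0.14 and an adjusted p of 0.309 from edgeR, and it was 0.093 without DE replicate 3. *Tgfb2* ran from 45.2 to 57.7 CPM in FA and from 46.3 to 62.5 in DE, with a log2 fold change of 0.03 (95% interval -0.24 to 0.31). *Tgfb3* was at 17.7 ± 1.81 CPM in FA and 19.9 ± 4.16 in DE (SD, n = 4 each), with a log2 fold change of 0.17 (95% interval -0.16 to 0.50), which was 0.039 without DE replicate 1. For both genes the groups overlapped.
The balance of the isoforms was compared as their share of the summed per-kilobase level. *Tgfb2* held 40.5% ± 3.32 in FA and 37.8% ± 5.33 in DE (SD, n = 4 each), *Tgfb1* held 35.2% and 37.7%, and *Tgfb3* held 24.4% in each group. The *Tgfb2* share differed by -2.65 percentage points (DE minus FA), with an exact two-sided permutation p of 0.429, where 0.0286 is the smallest p that 4 libraries against 4 allow.

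*Bmp10* and *Inhba* varied most among libraries of a group. *Bmp10* (chromosome 6 from 87428994 to 87434512), a cardiac BMP needed for trabecular growth and later made mainly in the atrium, was at 3.88, 4.48, 7.00 and 3.88 CPM in FA replicates 2, 3, 4 and 6. In DE replicates 1, 3, 5 and 7 it was at 8.59, 2.50, 2.64 and 6.66 CPM. DE replicates 3 and 5, whose names carry 12, lay below every FA library, while DE replicate 1 lay above all of them. Between DE and FA the log2 fold change was 0.08 with a standard error of 0.38 and an adjusted p of 0.918 from edgeR.
In a model with 3 groups, added after these values were seen, the mean was 7.63 CPM in the 2 DE libraries with 11 and 2.57 CPM in the 2 with 12. The log2 difference (12 minus 11) was -1.58 with a standard error of 0.28 and an adjusted p of 0.0339 from edgeR's quasi-likelihood test. In that model 2.06% of all tested genes were called between the DE libraries with 12 and with 11. Against FA, the log2 fold change of *Bmp10* was 0.69 for the libraries with 11 (adjusted p = 0.140 from edgeR) and -0.88 for those with 12 (adjusted p = 0.0264 from edgeR). Of the libraries with 11, DE replicate 1 lay above the FA range and DE replicate 7 inside it. The sum of 7 atrial markers, of which *Bmp10* is 1, ran from 573.9 to 1338 CPM in FA and from 560.1 to 897.2 CPM in DE. Much of this sum was *Nppa*. Without *Nppa* and *Bmp10*, the sum of the other 5 was 212.6, 249.5, 289.5 and 381.6 CPM in FA replicates 2, 3, 4 and 6 and 447.2, 402.0, 295.4 and 274.2 CPM in DE replicates 1, 3, 5 and 7. DE replicate 1, highest for *Bmp10*, was highest here too, while DE replicate 3, lowest for *Bmp10*, came next to it. The part of atrial cells in the *Bmp10* values was not tested.
*Inhba* (chromosome 13 from 16004256 to 16031609), whose product forms activin A, was at 6.36, 1.69, 4.68 and 2.21 CPM in FA replicates 2, 3, 4 and 6. In DE replicates 1, 3, 5 and 7 it was at 2.90, 0.717, 0.998 and 3.20 CPM. The lowest values were again in DE replicates 3 and 5, and FA replicates 2 and 4 were the highest. The DE to FA ratio was 0.495 with a 95% interval from 0.229 to 1.07 and an adjusted p of 0.233 from edgeR. The 2 DE libraries with 12 differed from those with 11 by -1.81 on the log2 scale, with a standard error of 0.54 and an adjusted p of 0.0909 from edgeR.
The libraries also differed in the balance of long and short transcripts. Each gene's log2 level was first centered on its mean over the 8 libraries. The median over the 10% of genes with the shortest annotated exons was then subtracted from that over the longest 10%. This difference, relative to the other libraries, was 0.52, -0.22, 0.44 and -0.04 in FA replicates 2, 3, 4 and 6. In DE replicates 1, 3, 5 and 7 it was 0.10, -0.41, -0.52 and 0.12. FA replicates 2 and 4, highest for *Inhba*, were highest here too, and DE replicates 3 and 5 were lowest. *Inhba* has 6390 bases of annotated exon, the most of the 10 ligands. With offsets for the length and GC content of transcripts, the log2 fold change between DE and FA was -0.93 for *Inhba*, against -1.02 over the same genes without offsets, and 0.07 for *Bmp10* with and without them. The difference between the libraries with 12 and with 11 was not fitted with offsets.
Against FA, the DE libraries with 12 had 2 ligands called higher (*Bmp4* and *Bmp6*) and 3 called lower, where 9.97% of all tested genes were called higher and 13.4% lower. The 3 lower were *Inhba* at -2.15 (adjusted p = 0.0101), *Bmp10*, and *Bmp5* at -0.70 (adjusted p = 0.0373, both from edgeR). The DE libraries with 11 had 0 ligands called against FA, where 2.99% of all tested genes were called, and *Inhba* was at -0.34 and *Bmp5* at -0.16. In the same contrast *Bmp6* was at 0.82 (adjusted p = 0.0562) and *Bmp2* at 0.63 (adjusted p = 0.0970, both from edgeR), close to their values over all 8 libraries. All libraries with 12 are DE, so the number and the exposure cannot be told apart in the contrast of 12 with FA.

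**Figure D3:**
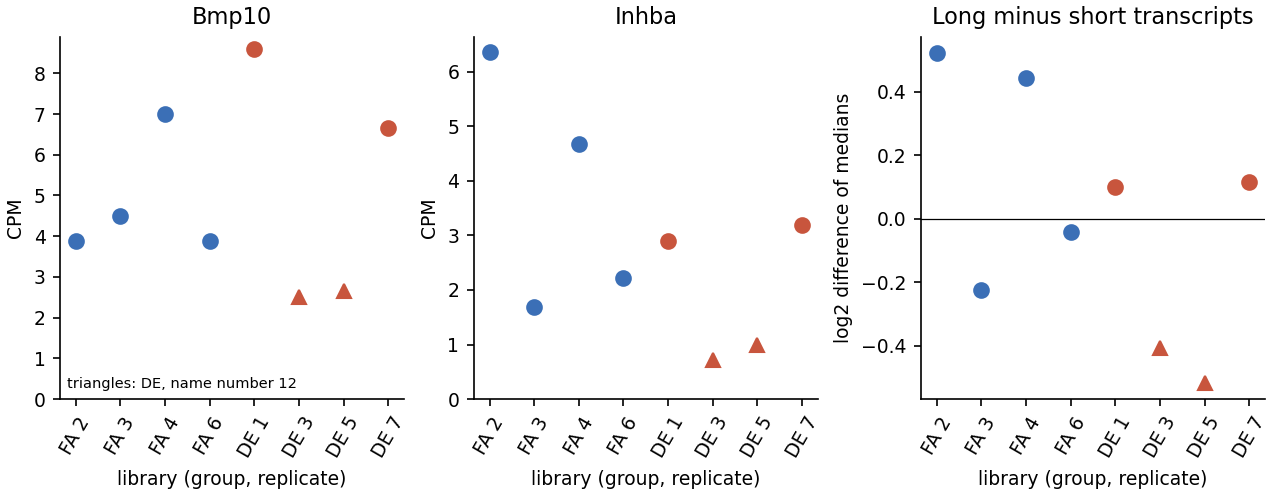
CPM of Bmp10 and of Inhba, and the log2 difference between long and short transcripts, for each library on a linear axis. The difference is taken after centering each gene on its mean over the libraries. FA is in blue and DE in red, with triangles for the DE libraries whose names carry 12. The triangles are lowest in all 3 panels, at 2.50 and 2.64 CPM for Bmp10 and 0.717 and 0.998 CPM for Inhba.

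The other genes of the pathway were read from fixed lists, and of 98 distinct genes tested, 9 were called higher in DE and 0 lower, against 3.58% and 2.22% of all tested genes. Other tests also called some lower: DESeq2 and edgeR's likelihood ratio test each called 15 higher and 3 lower, and the fit with offsets for length and GC content called 13 higher and 4 lower. Other fits called fewer: 1 gene passed when the test itself required a difference of 25%, and 1 without FA replicate 2, 2 without FA replicate 4 or without DE replicate 3, and 4 without FA replicate 3 or with the libraries carrying 11 only. Among 9 tested ligands outside the 10, *Gdf10*, a BMP3-related ligand, was called. It was at 2.21 ± 0.403 CPM in FA and 4.10 ± 1.14 in DE, with a log2 fold change of 0.88 and an adjusted p of 0.0454 from edgeR. *Inhbb*, the beta B subunit of activins, was at 11.2 ± 1.20 CPM in FA and 7.58 ± 2.10 in DE without overlap, but with an adjusted p of 0.107 it was not called. A further 14 listed ligands had too few counts to be tested.
Of 18 receptors and co-receptors, 2 were called higher, and the median log2 fold change was -0.12. *Acvrl1*, the endothelial type I receptor that binds BMP9 and BMP10 and is also known as ALK1, was at 18.9 ± 2.49 CPM in FA and 27.4 ± 4.59 in DE, with a log2 fold change of 0.53 and an adjusted p of 0.0476 from edgeR. *Amhr2*, the type II receptor of anti-Müllerian hormone, was at 1.08 ± 0.225 and 2.31 ± 0.373 CPM. *Bmpr1a*, a type I BMP receptor of the myocardium, had means of 302.1 CPM in FA and 206.9 CPM in DE, with an adjusted p of 0.0768 from edgeR, and was not called. Of 12 Smads and their regulators 0 were called, and 9 were below 0. Their smallest p was that of *Skil*, a repressor of Smad signaling, with a log2 fold change of -0.44 and an adjusted p of 0.114 from edgeR.
Secreted antagonists bind ligands outside the cell, and 1 of 15 tested was called. This was *Kcp*, which encodes kielin/chordin-like protein, a BMP modulator, at 9.75 ± 0.480 CPM in FA and 15.4 ± 2.16 in DE. Its log2 fold change was 0.66 and its adjusted p 0.0139 from edgeR. *Fstl1*, a secreted glycoprotein of the follistatin family, had a log2 fold change of 0.46 and an adjusted p of 0.0726 from edgeR, and was not called.
Of 20 genes for latency, storage and activation of the ligands, 4 were called, all higher in DE. *Ltbp4*, which holds latent TGF-beta in the matrix, was at 262.8 ± 12.6 CPM in FA and 384.5 ± 73.8 in DE (adjusted p = 0.0357 from edgeR). *Pcsk6*, a protease that cuts ligand precursors, was at 13.0 ± 2.92 and 21.3 ± 0.896 CPM (adjusted p = 0.0247 from edgeR). *Emilin1*, an elastic fiber protein that limits TGF-beta processing, and *Dcn*, the matrix proteoglycan decorin, had log2 fold changes of 0.67 and 0.56. *Dcn* is also in the fibroblast marker list, whose sum was higher in every DE library, and the part of fibroblasts in these 4 calls was not tested.

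Genes known to respond to the ligands were read in the same way. Of 17 TGF-beta response genes, 1 was called, near the 5.80% of all tested genes. Of the 17, 14 were above 0, against 50.5% of all tested genes, and the median log2 fold change was 0.38. The called gene was *Col1a1*, the main chain of type I collagen, at 495.4 ± 91.5 CPM in FA and 954.1 ± 167.1 in DE, with a log2 fold change of 0.95 and an adjusted p of 0.00874 from edgeR. The study named *Col1a1* from these libraries, so it is not independent evidence, and *Col1a1*, *Col1a2*, *Col3a1* and *Postn* are in the fibroblast marker list as well. *Acta2*, smooth muscle actin, was lower without overlap of the groups, with a log2 fold change of -0.63 and an adjusted p of 0.0562 from edgeR, and was not called. *Tgfbi*, a matrix protein gene, had a log2 fold change of 0.54 and an adjusted p of 0.0515 from edgeR.
Of 14 BMP response genes 0 were called, against 5.80% of all tested genes, so the count is near the background. Of the 14, 7 were above 0 and 7 below 0, with a median log2 fold change of -0.03. *Id1*, a direct target of BMP Smads, had a log2 fold change of 0.01 (95% interval -0.38 to 0.40). *Id2* and *Id3* were both at 0.30, with adjusted p-values of 0.108 and 0.260 from edgeR. *Smad6*, an inhibitory Smad that BMPs induce, was at -0.08. *Msx1*, a homeobox gene that BMPs induce, was at 0.79 (adjusted p = 0.189 from edgeR), and *Bambi*, a pseudoreceptor that dampens signaling, at -0.27 (adjusted p = 0.203 from edgeR).

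**Figure D4:**
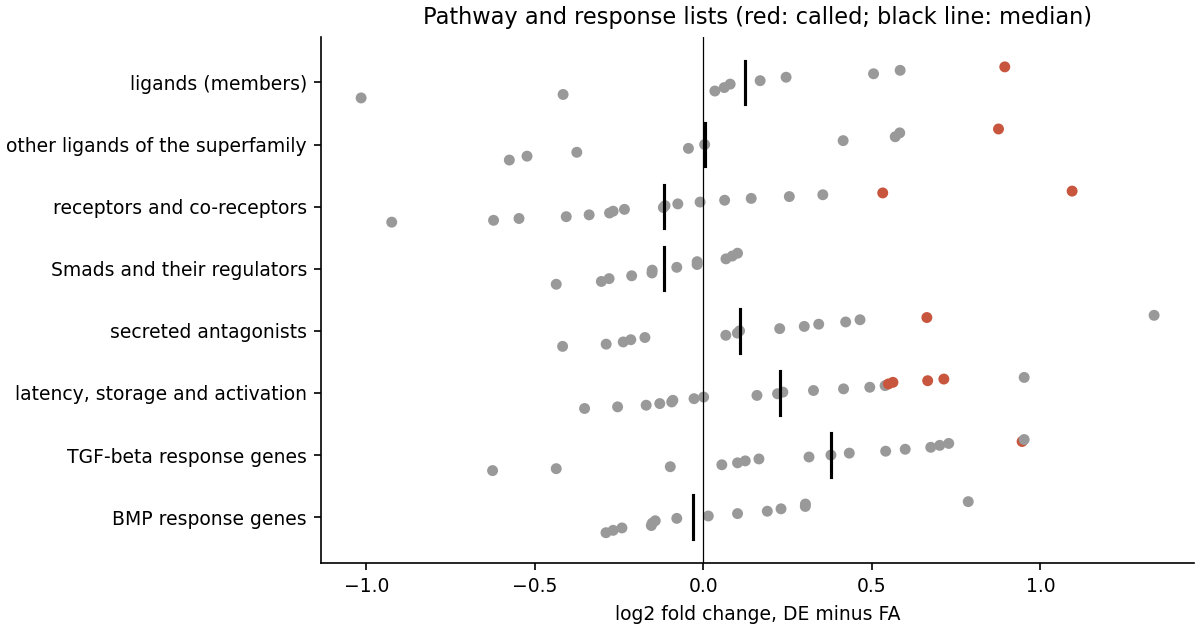
Log2 fold change between DE and FA for each tested gene of the ligand, pathway and response lists, with called genes in red and black lines at the list medians. With the 10 ligands in a single list, medians run from -0.12 for the receptors and the Smads to 0.38 for the TGF-beta response genes. No called gene lies below 0.

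The call of *Bmp6* depended on the test and on single libraries, though not its direction. Over 19 alternatives its log2 fold change was above 0 in all 19, from 0.75 to 1.01, and it was called in 13. The call was lost when FA replicate 2 (adjusted p = 0.0664 from edgeR), FA replicate 3 (0.0502) or DE replicate 3 (0.0535) was left out. With only the libraries whose names carry 11, its log2 fold change was 0.81 and its adjusted p 0.0550 from edgeR. *Bmp2* was above 0 in all 19, from 0.49 to 0.67, and called in 5. The other 8 ligands were called in 0 of these 19, which do not include the contrast of the libraries with 12 against FA.

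**Figure D5:**
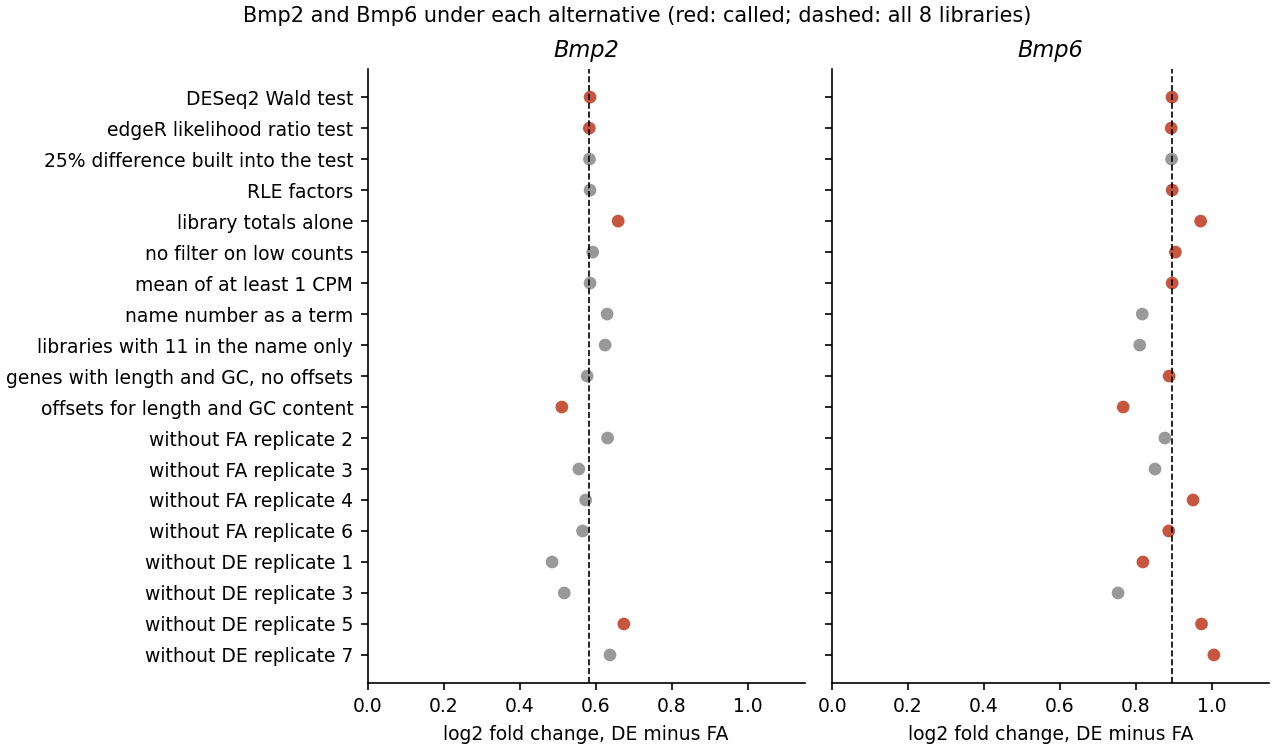
Log2 fold change of Bmp2 and Bmp6 between DE and FA under each of 19 alternatives, in red where the gene was called and in gray where it was not, with a dashed line at the value from all 8 libraries. Bmp6 lies between 0.75 and 1.01 and is red in 13, and Bmp2 lies between 0.49 and 0.67 and is red in 5.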

How the data were processed

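Poly-A RNA of NCMs was sequenced from a stranded TruSeq library per neonate. The authors used TopHat to align reads to mm10, kept duplicates in the alignments with a mark, and deposited raw fragment counts per Entrez gene from featureCounts; strand and multi-mapping settings are not given in the sources used here. The study's methods give fewer neonates per group than the 4 libraries analysed here. From the counts, genes were filtered with filterByExpr (minimum count 10), TMM factors were computed, and DE was compared with FA with edgeR 4.0.16 (quasi-likelihood test) in R 4.3.3 with Benjamini-Hochberg adjustment. DESeq2 1.42.0 was an alternative. Scripts were tested on simulated data. Exon lengths came from GENCODE M21, and symbols, positions and promoters from RefSeq GRCm38.p6.

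The text names the 10 ligands, the called genes of the pathway and response lists and the 3 smallest p-values of a list, not all of them printed, and the 3 genes most like each called ligand. The members and lists were chosen with earlier results of these data known. *Id1*, *Id3*, *Smad6*, *Col1a2*, *Col3a1* and *Postn* were named after their values were seen. Of 19 receptors listed, 18 were matched. Offsets for transcript length and GC content, the model with 3 groups and marker sums without a leading gene were chosen after seeing the data.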

Additional observations from a re-analysis of the deposited data

Results flagged for a closer look

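The levels of the 10 ligands and of the 9 called pathway and response genes, and the shares of the 3 *Tgfb* genes, gave 44 groups of 4 libraries. In 3 of them 1 library lay far from the rest by Dixon's test, where chance flags about 1 in 20 groups. *Amhr2* was at 1.75 CPM in DE replicate 1, against 2.44 to 2.54 CPM in the other DE libraries. *Ltbp4* was at 244.0 CPM in FA replicate 3, against 266.8 to 270.9 CPM in the other FA libraries. *Pcsk6* was at 20.0 CPM in DE replicate 5, against 21.6 to 21.9 CPM in the other DE libraries. None of the 10 ligands had such a library.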

How the results depend on the processing

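The numbers below stand beside 868 genes, 1 ligand higher, 0 ligands lower and 9 pathway and response genes called with all 8 libraries. DESeq2 called 1633 genes, 2 ligands and 18 pathway genes, and edgeR's likelihood ratio test 1603, 2 and 18. With the 25% difference built into the test, 114 genes, 0 ligands and 1 pathway gene were called. Library totals alone gave 2 ligands. With the name number as a term, 448 genes and 0 ligands were called, *Bmp7* was at -0.13 and *Tgfb1* at 0.044, and with the libraries carrying 11 only, 260 genes, 0 ligands and 4 pathway genes, with *Bmp7* at -0.14 and the *Tgfb2* share at 1.61 percentage points (exact permutation p = 0.667, the smallest possible being 0.0667). Offsets for the length and GC content of transcripts, an alternative that was chosen after seeing the data, gave 1441 genes, 2 ligands (*Bmp2* joining *Bmp6*), 17 pathway genes and *Bmp7* at -0.029. Leaving out 1 library at a time gave 237 to 1168 genes, 0 to 2 ligands, 1 to 13 pathway genes, 0.093 to 0.31 for *Tgfb1*, -0.068 to 0.092 for *Tgfb2*, 0.039 to 0.27 for *Tgfb3*, -0.052 to 0.15 for *Bmp7*, -0.33 to 0.31 for *Bmp10* and -4.37 to -0.45 points for the share. Without FA replicate 2 or 4 or DE replicate 3, at most 2 pathway genes were called, and without FA replicate 2 *Inhba* was at -0.59. Ligands called lower stayed at 0 in each of these. The causes were not tested. Of 190 ligand values under the alternatives, 168 kept their direction and side of the threshold. No paired analysis was made because the sources used here give no pairing of FA with DE neonates. The standard error of the log2 fold change was 0.13 to 0.21 for 8 ligands, 0.38 for *Bmp10* and 0.51 for *Inhba*.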
